A study of Mus musculus with 10 samples.

Results

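The mouse melanoma line B16 and the mouse colon carcinoma line MC38 were set side by side in the same cytokine. All 4 libraries of B16 and all 6 of MC38 were used, which together are the 10 libraries of the series. Each held total RNA from cultured cells that carried a knockdown of Sdc1 and had received 10 ng/ml of the cytokine interferon gamma (IFNγ) for 24 h. The knockdown and the cytokine were thus common to both sides. Sdc1 encodes syndecan-1, a heparan sulphate proteoglycan of the cell surface. The B16 side consisted of 2 libraries with the knockdown alone and 2 in which wild-type Sdc1 had been put back. The MC38 side consisted of 2 libraries with the knockdown alone, 2 with a form of Sdc1 labelled c30 and 2 with a form labelled ect, both called mutants in the labels and not described further. Each lineage was represented by 1 line, no library without IFNγ was analysed here, and the labels did not say whether the 2 libraries of a group came from separate cultures. A difference between lineages, between 2 individual tumours and between 2 culture histories therefore cannot be told apart, nor can a higher starting level of an interferon-responsive gene and a stronger response to the cytokine. P-values measured only the spread between these libraries, which may be technical.

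B16 derives from a melanoma, a tumour of melanocytes, the pigment cells that arise from the neural crest. In melanocytes the transcription factors MITF and SOX10 keep the pigment enzymes and the melanosome proteins transcribed. MC38 derives from a chemically induced colon tumour, so its reference lineage is the intestinal epithelium, which is defined by factors such as CDX2 and HNF4A and by epithelial adhesion proteins and keratins. IFNγ binds the receptor chains IFNGR1 and IFNGR2, and the kinases JAK1 and JAK2 carry the signal inside the cell. Gamma-activated sites and interferon-stimulated response elements are the promoter elements through which genes respond, and IRF1 and IRF9 act on the latter. The genes downstream include GTPases against intracellular microbes, antiviral effectors, chemokines that attract T cells, and the machinery of antigen presentation.

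Counts per library ranged from 11349447 to 15041133. Levels are given as counts per 1000000 counts of the library (CPM). A floor of 3 counts, taken for a gene with no count, corresponded to 0.199 to 0.264 CPM, and floors and intervals cover counting error only. Pearson's r was taken over log2(CPM + 1) of the genes tested below, with CPM scaled by the TMM method for this purpose. It was 0.9938 to 0.9958 between MC38 libraries, 0.9933 to 0.9954 between B16 libraries and 0.8177 to 0.8255 between libraries of different lines. The 21 leukocyte markers listed summed to 13.0 to 15.8 CPM in B16 and 10.9 to 11.8 CPM in MC38. Among them 6, including Cd3e, Cd8a and Nkg7, had 0 counts in all 10 libraries, and Ptprc, the pan-leukocyte marker CD45, did not pass 0.399 CPM in any. Of the 21, 2 reached 1 CPM in every B16 library and 1 did in every MC38 library. In the test between the lines given below, 5 were tested. Of these 1 was at least 2-fold higher in B16, against 17.8% of all genes tested, and 4 did not pass. The 10 endothelial markers summed to 7.04 to 8.7 CPM in B16 and 6.32 to 8.96 CPM in MC38. MC38 replicate 2 of the c30 form held more counts of Dct, Tyrp1, Pmel and Mlana than the other 5 MC38 libraries, as given below. Its summed CPM over the pigment and melanosome genes, 677, lay within the range of the others, 656 to 839. In MC38 that sum was mostly Gpnmb and Myo5a, given below, so it could not show an excess of a few CPM. The part of any admixed cells or RNA in the results was not tested beyond these values.

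Of 16877 genes tested with the quasi-likelihood test of edgeR, 13258 (78.6%) passed an adjusted p of 0.05 between the lines. They split into 6465 (38.3%) that were higher in B16 and 6793 (40.3%) that were higher in MC38. A difference of at least 2-fold as well was found for 3002 genes (17.8%) in B16 and 3568 (21.1%) in MC38, which is 38.9% of those tested. The libraries of the lines did not overlap in CPM for 5151 genes (30.5%) with B16 on top and 5961 (35.3%) with MC38 on top. At 32-fold or more in the fit there were still 845 genes higher in B16 and 1062 higher in MC38. These counts include genes of low level with no count in 1 line, for which the fitted fold is uncertain. Abca13, at a mean of 1.13 scaled CPM in B16 and 0 in MC38, had a fitted log2 difference of 6.83. Clec11a, at 0 in B16 and 0.994 in MC38, had -6.65. The 32-fold counts were not repeated with a filter at 5 CPM. The median log2 difference over all tested genes was -0.03 and the median absolute log2 difference was 0.70. All log2 differences below are B16 minus MC38 from this fit, and these shares are the background for each list of genes. The lists were read from their counts and medians only. A gene that passed the filter on low counts through 1 line alone had to differ, and genes listed but not tested are given with their levels.

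Far fewer genes differed between the groups of a line, which are labelled by Sdc1 form, than between the lines. A test across the 3 MC38 groups passed 311 of the 16877 genes (1.84%), and the test of the 2 B16 groups passed 27 (0.16%). Single libraries moved these counts: the first was 62 without replicate 2 and 65 without replicate 1 of the MC38 knockdown, 164 to 190 without a single c30 or ect library, and 1334 and 1327 without replicate 1 and replicate 2 of wild-type B16. The second was 1194 without replicate 1 and 272 without replicate 2 of wild-type B16, and 13 and 6 without replicate 1 and replicate 2 of the B16 knockdown. Between the line means the median absolute difference of log2(CPM + 1) was 0.56, and 29.1% of genes differed by at least 1. Between the knockdown groups of the 2 lines, which carry no re-expressed form, these values were 0.57 and 29.5%. Within a line the median was 0.11 for c30 and for ect against the MC38 knockdown and 0.10 for wild type against the B16 knockdown, and no more than 0.154% of genes differed by 1. The knockdown groups alone gave 11504 calls (68.2%) between the lines, and 9396 genes (55.7%) were called the same way in all 6 pairs of a B16 and an MC38 group. Of the 6570 genes called at least 2-fold over all libraries, 5618 (85.5%) belonged to these.

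**Figure D1:**
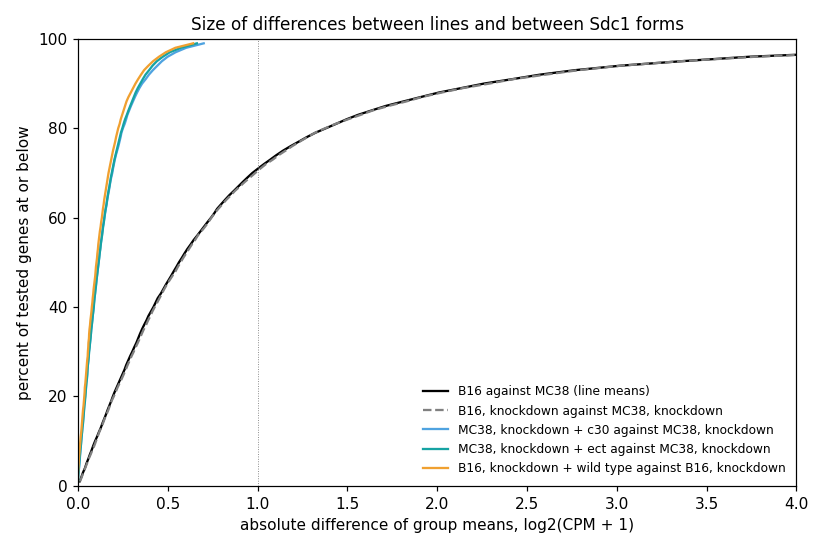
Cumulative percentage of the 16877 tested genes (y axis) at or below an absolute difference of group means in log2(CPM + 1) (x axis), for the 2 lines, for their knockdown groups, and for each re-expressed form of Sdc1 against the knockdown of its own line; the dotted line marks a difference of 1. The curves of the 2 line comparisons lie close together, with medians of 0.56 and 0.57, and those of the 3 forms rise steeply at medians of 0.10 and 0.11.

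For Sdc1, the gene manipulated in both lines, the difference between the lines depended on the forms compared. It stood at 40.7, 43.1, 71.1 and 56.9 CPM in B16, listing here and below the 2 knockdown libraries first and the 2 wild-type libraries after them. In MC38 it stood at 24.5 and 30 CPM with the knockdown, 97 and 99.5 CPM with c30, and 22.4 and 25.2 CPM with ect. The c30 libraries were the highest of all 10, so the lines overlapped. The ect libraries overlapped those of the MC38 knockdown. Counts per gene do not separate the transcript of the cell's own gene from that of a re-expressed form. The fit gave a log2 difference 0.42, SE 0.07, adjusted p = 5.89e-06, but with the libraries grouped by line only the log2 difference was 0.17 and the adjusted p 0.791. Between the knockdown groups alone Sdc1 was higher in B16 (log2 difference 0.66, adjusted p = 1.27e-05). Of the 10 syndecans and glypicans listed, 7 were tested, 4 were at least 2-fold higher in B16 and none in MC38. Sdc3, syndecan-3, was at 76.8, 77.8, 73.5 and 58.8 CPM in B16 against 5.01 to 7.93 CPM (median 6.92) in MC38 (log2 difference 3.45, SE 0.09, adjusted p = 1.81e-23). Gpc6, a glypican anchored to the membrane by a lipid, followed at 24.3 to 27.9 CPM against 0.435 to 1.32 CPM (log2 difference 5.10, SE 0.21, adjusted p = 9.28e-22).

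Pigment genes were higher in B16 with few exceptions. Of 21 pigment and melanosome genes listed, 20 were tested, 16 were at least 2-fold higher in B16, 2 more were higher by less, and none was higher in MC38. The 2 that did not pass were Hps4 (log2 difference -0.03) and Bloc1s3 (-0.07), which encode subunits of complexes that build lysosome-related organelles in many cell types. The median log2 difference of the 20 was 5.79, or 5.5 with the genes that had no count in MC38 set at their lower bound. The listed genes summed to 23575 to 24841 CPM in B16 and 656 to 839 CPM in MC38. The upstream sequences of the 3 enzymes that make melanin are shown because MITF is known to bind E-boxes in promoters of pigment genes. They are the 250 bases before the RefSeq start, from build GRCm38.p6, 5′ to 3′ on the strand of the gene. Each CATGTG, read on both strands, is in capitals.
Tyr: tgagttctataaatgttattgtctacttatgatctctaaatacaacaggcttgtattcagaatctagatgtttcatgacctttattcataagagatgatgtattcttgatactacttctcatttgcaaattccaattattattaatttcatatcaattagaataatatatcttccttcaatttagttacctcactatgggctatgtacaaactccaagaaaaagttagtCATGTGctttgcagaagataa
Tyrp1: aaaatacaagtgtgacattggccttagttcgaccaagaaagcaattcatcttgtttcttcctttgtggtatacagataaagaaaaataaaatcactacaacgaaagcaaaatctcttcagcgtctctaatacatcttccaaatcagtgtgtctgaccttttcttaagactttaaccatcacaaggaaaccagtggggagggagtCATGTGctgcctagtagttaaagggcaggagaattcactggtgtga
Dct: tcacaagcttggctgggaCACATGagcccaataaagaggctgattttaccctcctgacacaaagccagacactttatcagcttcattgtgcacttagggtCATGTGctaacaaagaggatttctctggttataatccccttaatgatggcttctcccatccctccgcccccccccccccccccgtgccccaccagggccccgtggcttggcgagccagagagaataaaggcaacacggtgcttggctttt
These windows lie at chr7:87493513-87493762 on the minus strand for Tyr, chr4:80833963-80834212 on the plus strand for Tyrp1 and chr14:118052247-118052496 on the minus strand for Dct, each just upstream of the first exon. The motif began 21 bases before the start in Tyr, 46 in Tyrp1, and 232 and 150 in Dct. Of 32851 windows of this kind in the table, 12.3% held CATGTG, and of the 18 windows of listed pigment genes, 6 did. The palindromic form CACGTG was in 6.02% of all windows and in 7 of the 18. A match of letters is a description of the window and says nothing on binding.

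Tyr, the rate-limiting enzyme of melanin synthesis, was at 183, 172, 210 and 223 CPM in B16, and 1 count in all came from the 6 MC38 libraries. Tyrp1, which acts later in the same pathway, was at 4968, 4882, 4892 and 4969 CPM in B16 and 0 to 2.7 CPM (median 0.117) in MC38. Dct, dopachrome tautomerase, was at 4828, 4816, 5013 and 5020 CPM in B16 and 0 to 2.44 CPM (median 0.188) in MC38. Every B16 library thus lay far above every MC38 library for the 3 enzymes, and the ratio of summed CPM was 10149 for Dct (95% interval 7363 to 14414). That ratio was set by replicate 2 of c30, with 28 of the 37 counts of Dct in MC38, and was 35441 without it. The Tyrp1 ratio was likewise 8955 with and 29046 without that library. At 2.44 and 2.7 CPM, Dct and Tyrp1 in this library came to 0.0495% and 0.0548% of their B16 means, and the other 5 MC38 libraries did not pass 0.617 CPM for either.

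The structural and transport genes of the melanosome went the same way. Pmel, whose protein forms the fibrils on which melanin is laid down, was at 2134, 2142, 2559 and 2148 CPM in B16 and 0.29 to 2.18 CPM (median 1.01) in MC38 (log2 difference 11.10, SE 0.36, adjusted p = 1.6e-08). Mlana, the melanoma antigen MART-1, was at 853, 847, 959 and 915 CPM in B16 against 0 to 0.609 CPM (median 0.0441). Slc45a2, a melanosomal transporter, was at 200, 193, 234 and 213 CPM in B16 with no count in MC38, at least 5346-fold higher against a floor of 3 counts over the 6 libraries. Rab38, a small GTPase that sorts pigment enzymes, was at 215, 204, 225 and 222 CPM against 0 to 0.174 CPM (median 0.0332). Oca2 was the weakest of the enzymes and transporters that passed, at 1.53, 2.35, 0.792 and 0.878 CPM, again with no count in MC38. Genes that serve transport in other cells too were counted in both lines. Myo5a, a myosin that moves melanosomes along actin, was at 445 to 515 CPM in B16 and 206 to 240 CPM in MC38. Rab32, another small GTPase, was at 29.4 to 34.1 CPM and 18.4 to 26.9 CPM. Gpnmb, a glycoprotein of melanosomes and lysosomes, was also well above the floor in MC38 at 286 to 414 CPM (median 324), against 8902, 9139, 9399 and 8733 CPM in B16 (log2 difference 4.81, SE 0.04, adjusted p = 1.36e-33). Divided by the exon length of the gene, the B16 mean was 1742 CPM per kb for Tyrp1, 1388 for Gpnmb, 980 for Pmel, 845 for Mlana, 835 for Dct and 27.7 for Tyr, so that Tyr was the least abundant of the 3 melanin enzymes on this scale.

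The regulators of the lineage followed, with 1 exchange. Of 15 listed, 11 were tested, 10 were at least 2-fold higher in B16 and 1, Sox9, was higher in MC38. Mitf was at 227, 241, 257 and 268 CPM in B16 and 4.79 to 6.46 CPM (median 5.55) in MC38 (log2 difference 5.52, SE 0.08, adjusted p = 6.22e-31), so its transcript was low but counted in every MC38 library. Sox10 was at 365, 398, 381 and 293 CPM in B16, and MC38 gave 1 count in 6 libraries (ratio of summed CPM 27372, 95% interval 4912 to 1081212). Sox9, the related factor of cartilage, hair follicle and intestinal crypt, was reversed, at 0.687, 1.57, 1.19 and 1.04 CPM in B16 and 116 to 137 CPM (median 125) in MC38 (log2 difference -6.77, SE 0.20, adjusted p = 5.87e-28). Pax3, which acts with SOX10 on Mitf, was at 200, 208, 186 and 201 CPM against 1.36 to 2.87 CPM (median 1.88) (log2 difference 6.74, SE 0.13, adjusted p = 3.48e-30). The melanocortin receptor Mc1r stood at 82, 89.7, 88.5 and 84 CPM against 0.332 to 1.84 CPM (median 1.33) (log2 difference 6.15, SE 0.20, adjusted p = 5.32e-20). Ppargc1a, the mitochondrial coactivator PGC1α and a known MITF target in melanoma, was at 59.3, 60.8, 54.1 and 61.3 CPM against 0 to 0.441 CPM (median 0.213) (log2 difference 8.04, SE 0.38, adjusted p = 8.74e-26). Kit, the stem cell factor receptor of melanoblasts, was low in B16 itself at 1.45, 2.87, 2.93 and 3.11 CPM, and Ednrb, the endothelin receptor of the lineage, had no count in any B16 library. Ets1 and Zeb2 were expressed in both lines and were 4.37-fold and 3.71-fold higher in B16.

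Neural crest and Schwann cell genes were divided between the lines, with 6 of 12 tested at least 2-fold higher in B16 and 5 in MC38. On the B16 side, S100b, a calcium-binding protein of glia and melanoma, was at 69.2, 70.1, 78.9 and 78.6 CPM against 0 to 0.29 CPM (median 0.175) in MC38. The neuregulin receptor Erbb3 was at 127, 131, 130 and 128 CPM against 5.01 to 11.3 CPM (median 8.23) (log2 difference 4.04, SE 0.07, adjusted p = 6.04e-28). The intermediate filament gene Nes was at 152 to 169 CPM against 3.41 to 5.58 CPM, and Cdh19, a cadherin of Schwann cell precursors, at 122 to 168 CPM against 2.81 to 6.63 CPM. On the MC38 side, Ngfr, the p75 neurotrophin receptor, was at 3.74, 3.05, 1.98 and 2 CPM in B16 and 29.8 to 40 CPM (median 34.2) in MC38 (log2 difference -3.67, SE 0.14, adjusted p = 3.55e-21). The water channel Aqp1 was at 0.712 to 1.15 CPM against 318 to 380 CPM. Gfra1 and Gfra2, receptors of the GDNF family, were at 32.5 to 36.6 CPM and 41.1 to 51.3 CPM in MC38 and did not pass 0.319 CPM in B16. None of these 8 genes overlapped between the lines. The same held for all 12 tested, 7 with B16 on top and 5 with MC38 on top. Over all genes tested, 30.5% and 35.3% did not overlap in these directions. Sox2 reached 4.32 to 6.24 CPM in MC38 and 1 count in all in B16.

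**Figure D2:**
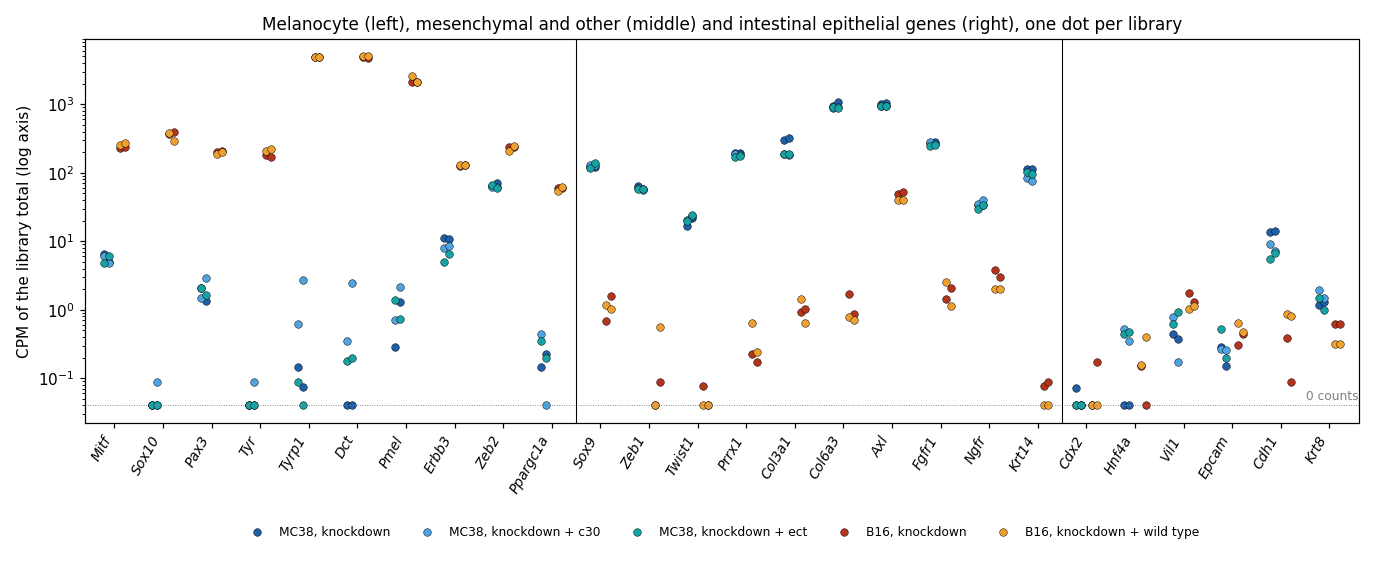
CPM on a log axis for 26 lineage genes (x axis), 1 dot per library, coloured by line and Sdc1 form: melanocyte genes on the left, mesenchymal and other genes in the middle, intestinal epithelial genes on the right. On the left every B16 dot lies above every MC38 dot, in the middle the order is the reverse, and on the right only Cdh1 passes 5 CPM in all MC38 libraries.

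Most genes listed as defining the intestinal epithelium were at or near 0 in MC38. Of 37 listed, 11 were tested at all, and 6 reached 1 CPM in every MC38 library. Cdx2, the master factor of intestinal identity, did not pass 0.0726 CPM in any MC38 library, and Cdx1 did not pass 0.435 CPM. Hnf4a was at 0 to 0.529 CPM, the adhesion molecule Epcam at 0.151 to 0.527 CPM, and the keratins Krt18 and Krt20 at 0 to 0.436 CPM and 0 to 0.527 CPM. In B16, Cdx2 was at 0 to 0.174 CPM, Epcam at 0.305 to 0.633 CPM and Krt18 at 0 to 0.305 CPM, also within a few counts of the floor. The labelled origin of MC38 was therefore not visible in these defining markers. The epithelial genes that were counted in MC38 were few. The 37 listed summed to 64.8 to 72.6 CPM in MC38 and 26.2 to 31.8 CPM in B16, of which the genes named here make only a part. Cdh1, E-cadherin, was at 5.53 to 13.9 CPM (median 8.28) against 0.382, 0.087, 0.871 and 0.798 CPM in B16 (log2 difference -4.22, SE 0.35, adjusted p = 2.51e-15). Gata6 was at 8.44 to 11.4 CPM and Klf5 at 10.2 to 17.2 CPM in MC38, against 0 to 0.087 CPM and 0.957 to 2.16 CPM in B16. Of the 11 tested, 5 were at least 2-fold higher in MC38 and 2, Vil1 and Lgr5, in B16, both below 2 CPM in every library. With a filter at 5 CPM the counts were 3 and 0.

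Mesenchymal genes were mostly higher in MC38. Of 32 listed, 26 were tested, 20 were at least 2-fold higher in MC38, 3 in B16 (Cdh2, Fn1 and Postn) and 2 did not pass. The median log2 difference was -5.23. Vimentin, the intermediate filament of mesenchymal cells, was high in both lines, at 2249, 2369, 2216 and 1919 CPM in B16 and 2078 to 2415 CPM (median 2229) in MC38 (log2 difference 0.02, SE 0.04, adjusted p = 0.738). The factors upstream differed. Zeb1 was at 0, 0.087, 0 and 0.559 CPM in B16 and 56.3 to 64.7 CPM (median 58.4) in MC38 (log2 difference -8.89, SE 0.85, adjusted p = 3.21e-23). Its relative Zeb2 was at 240, 236, 208 and 242 CPM in B16 and 60.6 to 70.5 CPM (median 63.8) in MC38 (log2 difference 1.89, SE 0.05, adjusted p = 3.42e-23). Twist1 was at 16.8 to 23.9 CPM (median 21.1) in MC38 and gave 1 count in the 4 B16 libraries (ratio 1044, 95% interval 187 to 41275). Twist2 had no count in B16 and 8.43 to 10.8 CPM in MC38, at least 163-fold higher. Prrx1, a homeobox factor of limb and cranial mesenchyme, was at 0.229, 0.174, 0.633 and 0.239 CPM in B16 and 170 to 195 CPM (median 183) in MC38 (log2 difference -9.17, SE 0.33, adjusted p = 8.66e-31). Genes of the extracellular matrix were far apart. Col6a3, a chain of collagen VI, was at 1.68, 0.87, 0.792 and 0.718 CPM in B16 against 891 to 1069 CPM (median 916), and Col6a2 at 0.0798 to 0.229 CPM against 208 to 282 CPM. Col3a1, the fibrillar collagen III, was at 0.916, 1.04, 1.42 and 0.639 CPM against 184 to 317 CPM (median 190). The gelatinase Mmp2, which cuts denatured collagen, was at 3.51, 3.05, 2.77 and 1.6 CPM against 391 to 542 CPM (median 442). Col3a1 and Col1a2 also differed between the MC38 forms (adjusted p = 1.17e-07 and 1.02e-06), within a range that did not reach the B16 libraries. Fibronectin ran against the group, with 835, 858, 605 and 568 CPM in B16 and 239 to 296 CPM (median 247) in MC38 (log2 difference 1.53, SE 0.05, adjusted p = 4.15e-22), and it differed between the B16 forms too (adjusted p = 0.000683). Tagln, Thy1, Lox and Lum, which mark contractile and resident fibroblasts, stayed below 0.4 CPM in all 10 libraries.

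Cadherin genes were called in both directions. N-cadherin, Cdh2, was at 167, 162, 143 and 134 CPM in B16 and 38.4 to 46.5 CPM (median 40.9) in MC38 (log2 difference 1.90, SE 0.06, adjusted p = 2.73e-22). Cdh13, a cadherin without a transmembrane segment, was at 6.26, 7.48, 10.5 and 7.5 CPM against 132 to 169 CPM (median 135) (log2 difference -4.14, SE 0.09, adjusted p = 7.69e-27). Of the 16 listed, 5 were tested, 2 were at least 2-fold higher in B16 and 3 in MC38, among them Cdh5, the endothelial cadherin, at 0.348 to 1.21 CPM in MC38. Of 10 keratinocyte markers 3 were tested, and only Krt14, the basal keratin, was abundant: 0.0764, 0.087, 0 and 0 CPM in B16 and 76.2 to 114 CPM (median 99.3) in MC38.

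The Hox genes, which record the position of a cell along the body axis, were mostly higher in MC38. Of 39 listed, 32 were tested, 23 were at least 2-fold higher in MC38, 3 in B16 and 3 did not pass. The median log2 difference was -3.22, and with a filter at 5 CPM the count on the MC38 side was 14. By cluster, the genes at least 2-fold higher in MC38 were 5 of 11 tested Hoxa, 8 of 9 Hoxb, 8 of 8 Hoxc and 2 of 4 Hoxd genes, and those at least 2-fold higher in B16 were 2 Hoxa genes and 1 Hoxd gene. No Hoxc gene had more than 1 count in any B16 library. In MC38, Hoxc6 was at 24 to 29 CPM (median 27.2), Hoxc10 at 17.5 to 21.6 CPM (median 19.3) and Hoxc11 at 21.3 to 27.4 CPM (median 24.7). Hoxc10, with no count in B16, was at least 321-fold higher in MC38. The Hoxa cluster was counted in both lines. Hoxa10 was at 16, 22.4, 22.2 and 21.8 CPM in B16 and 15.2 to 18.5 CPM (median 16.5) in MC38 (log2 difference 0.34, SE 0.10, adjusted p = 0.00296), with overlap between the lines and an adjusted p of 0.0618 without replicate 2 of the B16 knockdown. Hoxa9 was at 5.38 to 7.56 CPM and 16.8 to 20.1 CPM. Of the Hoxb genes, Hoxb9 was at 5.12, 5.83, 3.32 and 3.67 CPM in B16 against 38.4 to 44.8 CPM (median 41.1) (log2 difference -3.18, SE 0.11, adjusted p = 1.27e-21), and Hoxb7 at 0 to 0.16 CPM against 10.3 to 13.8 CPM. In the Hoxd cluster 2 genes stood in opposite order. Hoxd13, the last gene of the cluster, was at 17.9, 19.8, 22.7 and 18.4 CPM in B16 and 0 to 0.261 CPM (median 0.0332) in MC38 (ratio 300, 95% interval 128 to 927). Hoxd8 was at 1.3, 1.31, 0.95 and 0.798 CPM in B16 and 14 to 21.4 CPM (median 19.1) in MC38 (log2 difference -4.07, SE 0.21, adjusted p = 5.25e-19). Hoxd11 and Hoxd12, which neighbour Hoxd13, had no count in either line.

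**Figure D3:**
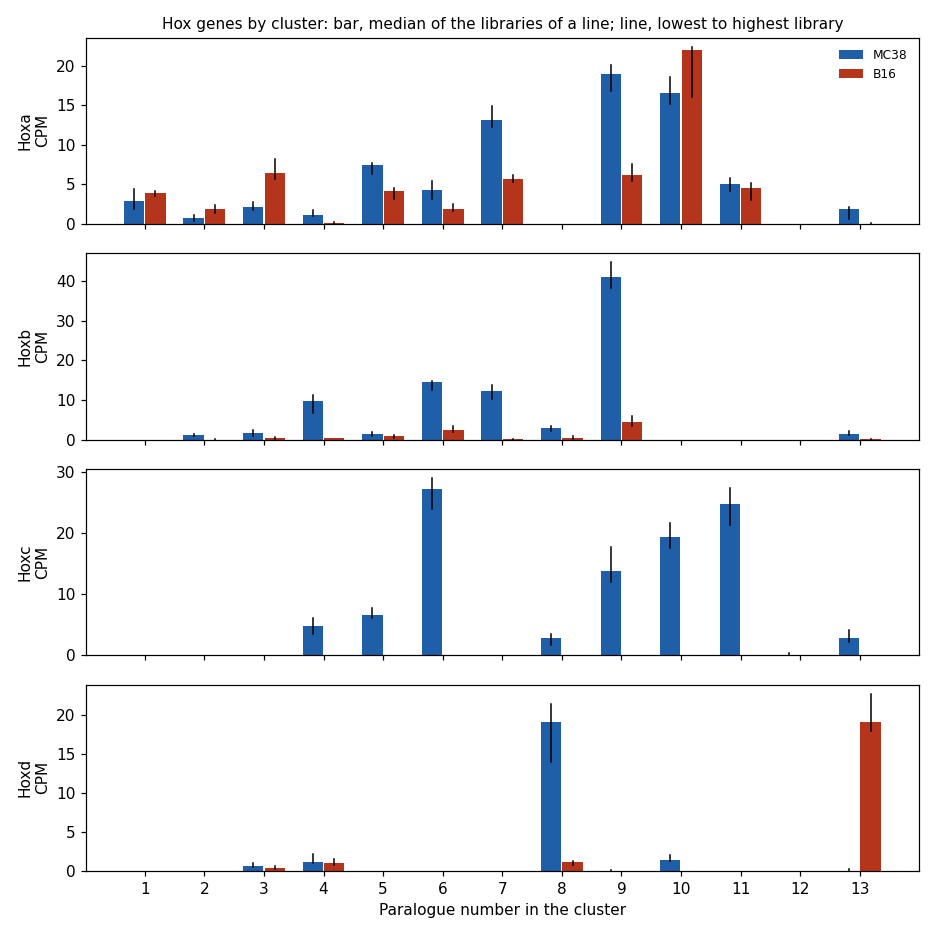
CPM (y axis, from 0) of the Hox genes of each cluster by paralogue number (x axis); bars are medians over the 4 B16 or the 6 MC38 libraries and lines span the lowest to the highest library. Bars of both lines stand in the Hoxa panel, the Hoxc panel has bars for MC38 only, and Hoxd13 is the tall B16 bar of the Hoxd panel, at 17.9 to 22.7 CPM.

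Receptor tyrosine kinases divided 8 to 20. Of 48 listed, 34 were tested, 8 were at least 2-fold higher in B16, 20 in MC38, and the median log2 difference was -1.57. Axl, a receptor for GAS6 that marks dedifferentiated melanoma, was at 48.4, 52.7, 40.6 and 39.9 CPM in B16 and 942 to 1041 CPM (median 958) in MC38 (log2 difference -4.38, SE 0.04, adjusted p = 1.33e-31). Fgfr1, a receptor for fibroblast growth factors, was at 1.45, 2.09, 2.53 and 1.12 CPM against 250 to 285 CPM (median 270) (log2 difference -7.17, SE 0.15, adjusted p = 1.03e-29). Fgfr3 ran the other way at 10.5 to 15.1 CPM against 0.678 to 1.09 CPM. Ephrin receptors stood on both sides. Epha3 was at 240, 228, 266 and 283 CPM in B16 and 0 to 0.348 CPM (median 0) in MC38. Epha2 was at 1.76, 2, 1.66 and 0.798 CPM in B16 and 275 to 358 CPM (median 332) in MC38 (log2 difference -7.68, SE 0.15, adjusted p = 4.76e-31). Met, the receptor for hepatocyte growth factor, was in both lines, at 65.1 to 71.9 CPM and 176 to 199 CPM. Egfr was below 1 CPM in all 10 libraries.

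Among the genes with the widest gaps, 12 on each side were taken by size. On the B16 side these were Dct, Tyrp1, Slc45a2, Sox10, Mlana and Tyr, which are listed above, and Prkcq, Gjc3, Foxr2, Vgll3, Gsdmc and Syt4. Prkcq, the protein kinase C isoform best known from T cell receptor signalling, was at 248, 241, 216 and 199 CPM in B16 with no count in MC38, at least 5746-fold higher. Gjc3, a connexin of myelinating glia, was at 195, 193, 179 and 210 CPM with no count in MC38, at least 4944-fold higher. Gsdmc, a member of the pore-forming gasdermins, was at 226, 220, 207 and 218 CPM with 1 count in MC38. On the MC38 side were Dkk2, Wnt10b, Nrg1, Gpr149, Slc7a2, Ngef, Tspan11, Stac2, B3galnt1, Arl4c, Cavin3 and Mirt1. Dkk2, a secreted modulator of WNT signalling, was at 71 to 92.3 CPM (median 84.8) in MC38 with no count in B16, at least 1399-fold higher. The ligand Wnt10b was at 63 to 76.5 CPM (median 69.5), also with no count in B16 and at least 1162-fold higher. Nrg1, the ligand of the ERBB3 receptor that was on the B16 side, was at 48.1 to 70 CPM (median 58.4) in MC38 and had no count in B16. By a separate rule, 201 rows of the table reached 5 CPM in all B16 libraries with no more than 3 counts in any MC38 library, and 254 rows did the reverse.

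**Figure D4:**
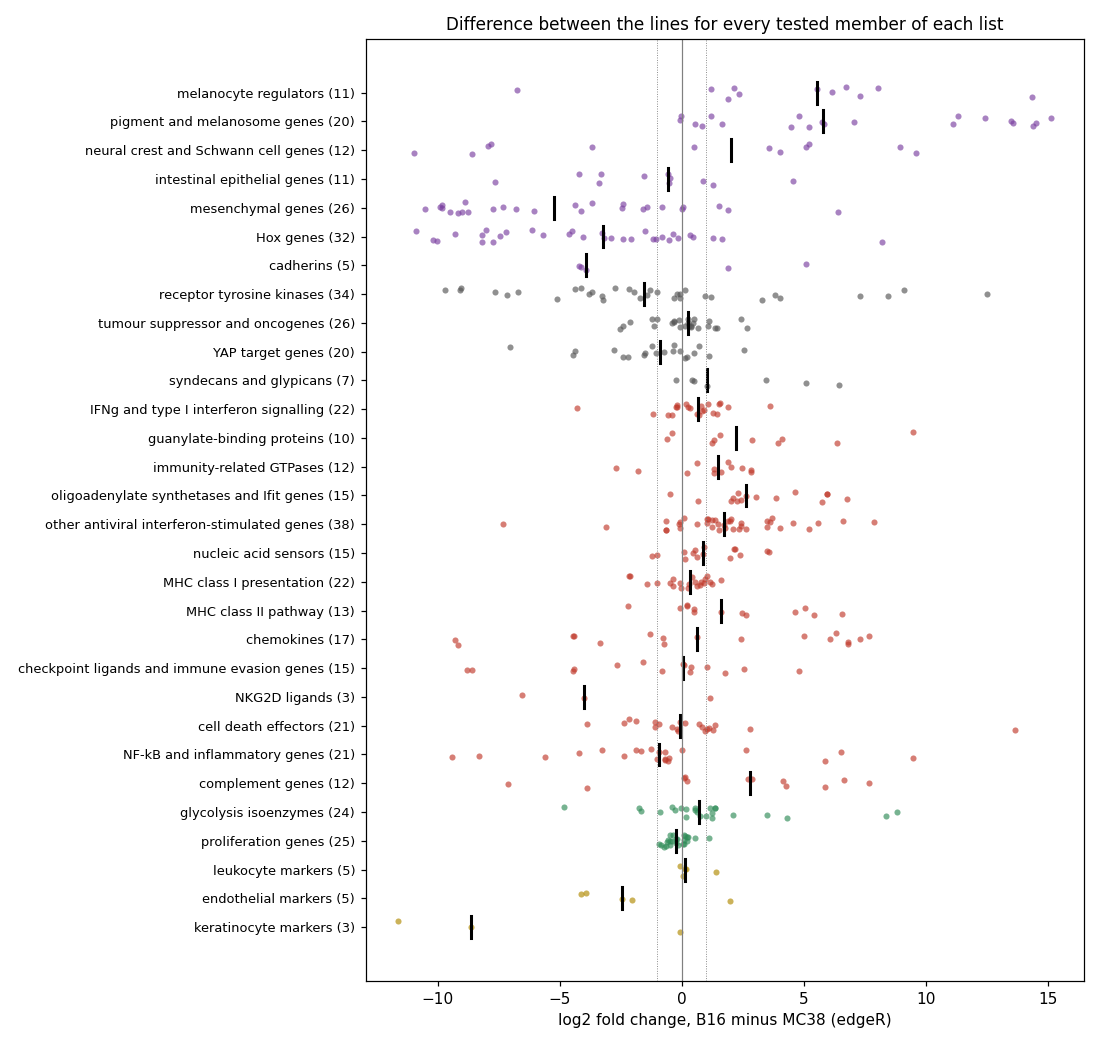
Log2 difference, B16 minus MC38, from edgeR (x axis) of every tested member of each gene list (rows, with the number tested in brackets). Points of the pigment list lie to the right with a median of 5.79, those of the mesenchymal list to the left with a median of -5.23, and those of the proliferation list close to 0.

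Genes of the interferon pathway itself were counted in both lines. All 22 signalling genes listed were tested, 7 were at least 2-fold higher in B16, 2 in MC38, and 8 and 5 more passed below 2-fold. The median log2 difference was 0.65. The receptor chains stood in opposite order. Ifngr1, the ligand-binding chain, was at 17.2, 16.4, 16 and 18 CPM in B16 and 37.7 to 43.2 CPM (median 39.5) in MC38 (log2 difference -1.20, SE 0.08, adjusted p = 2.61e-14). Ifngr2, the signalling chain, was at 44.1, 47.5, 50.4 and 50.9 CPM in B16 and 23.4 to 31.6 CPM (median 25.6) in MC38 (log2 difference 0.91, SE 0.07, adjusted p = 8.23e-13). Jak1 was 214 to 240 CPM in B16 and 252 to 286 CPM in MC38, and Jak2 was 64.9 to 69.3 CPM and 35.7 to 43.4 CPM. Stat2, a transcription factor of the pathway, was at 474, 482, 428 and 422 CPM in B16 and 110 to 143 CPM (median 123) in MC38 (log2 difference 1.88, SE 0.04, adjusted p = 3.89e-25). Irf9, its partner, was at 83.2, 82.3, 81.3 and 86.9 CPM in B16 and 50.8 to 58.3 CPM (median 52.9) in MC38 (log2 difference 0.69, SE 0.05, adjusted p = 3.96e-12). Irf1, an early target of IFNγ, was at 633, 632, 609 and 586 CPM in B16 and 389 to 451 CPM (median 417) in MC38 (log2 difference 0.60, SE 0.04, adjusted p = 4.2e-14). Irf8, a factor of myeloid cells, was reversed, at 0.993, 1.83, 1.5 and 1.12 CPM in B16 and 25.3 to 30.2 CPM (median 28.7) in MC38 (log2 difference -4.32, SE 0.19, adjusted p = 8.31e-21), in libraries where Ptprc, Itgam and Spi1 did not pass 0.6 CPM. These are only a few of the 21 leukocyte markers listed, of which 1 reached 1 CPM in every MC38 library. Of the inhibitors, Socs1 overlapped between the lines at 11.5 to 23.1 CPM in B16 and 17.3 to 30.3 CPM in MC38 (log2 difference -0.42, SE 0.12, adjusted p = 0.00336). Socs3 differed by -0.57 on the log2 scale. Usp18, which shuts off the type I receptor, was at 58.3, 57.7, 56.4 and 49.6 CPM in B16 and 3.86 to 6.02 CPM (median 4.67) in MC38 (log2 difference 3.60, SE 0.10, adjusted p = 1.1e-23).

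Antiviral effector genes were mostly higher in B16, several of them by more than 32-fold. Upstream windows of 5 interferon-stimulated genes are shown because the response element is known to act in such windows. They were picked from a larger set examined and are those that held the core of the element. The windows also examined for Cxcl9, Cd274, H2-Aa, H2-K1, H2-D1, Tap1, Psmb8 and Psmb9 did not hold it. Among these, Cxcl9, Cd274 and H2-Aa were higher in B16 too, as given below. The core of the element, GAAA, any 2 bases and GAAA again, read on both strands, is in capitals, and build and orientation are those above.
Ifit3: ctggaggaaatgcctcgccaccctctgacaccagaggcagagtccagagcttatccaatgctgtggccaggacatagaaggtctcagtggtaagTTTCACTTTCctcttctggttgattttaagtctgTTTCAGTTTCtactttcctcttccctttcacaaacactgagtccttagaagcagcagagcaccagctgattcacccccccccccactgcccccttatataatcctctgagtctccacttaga
Isg15: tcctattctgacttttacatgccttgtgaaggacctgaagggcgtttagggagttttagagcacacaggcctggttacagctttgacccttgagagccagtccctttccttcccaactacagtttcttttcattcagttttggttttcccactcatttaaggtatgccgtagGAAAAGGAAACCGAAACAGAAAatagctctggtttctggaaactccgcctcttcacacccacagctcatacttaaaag
Rsad2: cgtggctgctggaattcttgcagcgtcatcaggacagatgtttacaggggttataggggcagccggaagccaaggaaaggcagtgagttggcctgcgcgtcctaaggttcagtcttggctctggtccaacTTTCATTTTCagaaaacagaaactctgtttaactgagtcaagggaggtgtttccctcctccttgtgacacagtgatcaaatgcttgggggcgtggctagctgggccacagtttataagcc
Gbp2: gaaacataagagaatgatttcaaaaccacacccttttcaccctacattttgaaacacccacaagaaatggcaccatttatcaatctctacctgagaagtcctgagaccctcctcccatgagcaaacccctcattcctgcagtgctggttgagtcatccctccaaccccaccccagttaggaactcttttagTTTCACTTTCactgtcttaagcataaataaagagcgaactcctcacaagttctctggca
Cxcl10: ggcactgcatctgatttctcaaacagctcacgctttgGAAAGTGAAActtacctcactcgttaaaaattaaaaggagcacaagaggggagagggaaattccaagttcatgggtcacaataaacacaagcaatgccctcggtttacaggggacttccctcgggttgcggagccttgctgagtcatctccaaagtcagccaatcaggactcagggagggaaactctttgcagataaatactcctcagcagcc
They lie at chr19:34583279-34583528 on the plus strand for Ifit3, chr4:156200819-156201068 on the minus strand for Isg15, chr12:26456453-26456702 on the minus strand for Rsad2, chr3:142620413-142620662 on the plus strand for Gbp2 and chr5:92348890-92349139 on the minus strand for Cxcl10. Matches began 156 and 122 bases before the start in Ifit3, 120 in Rsad2, 59 in Gbp2, 213 in Cxcl10, and at 78, 72 and 66 in Isg15, where they overlap one another. The core was in 2.98% of all windows. Among windows of listed genes, it was in 10 of 15 for oligoadenylate synthetases and Ifit genes and 5 of 6 for guanylate-binding proteins. It was in 11 of 38 for other antiviral genes, 3 of 24 for class I presentation and 2 of 21 for chemokines. The gamma-activated site TTCNNNGAA was in 7.02% of all windows.

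All 15 oligoadenylate synthetase and Ifit genes were tested, 13 were at least 2-fold higher in B16, none in MC38, and the median log2 difference was 2.63. Ifit3, which binds viral RNA complexes with its relatives, was at 501, 473, 396 and 383 CPM in B16 and 4.44 to 13.5 CPM (median 6.57) in MC38 (log2 difference 5.94, SE 0.07, adjusted p = 8.01e-33). Ifit1, which recognises foreign RNA caps, was at 181, 186, 154 and 157 CPM against 1.5 to 5.08 CPM (median 3.53) (log2 difference 5.75, SE 0.10, adjusted p = 7.59e-30). Oas2, a synthetase of the second messenger that activates RNase L, was at 83.7, 83.6, 67.5 and 68.7 CPM against 0.529 to 2.4 CPM (median 1.56) (log2 difference 5.94, SE 0.16, adjusted p = 2.34e-27). Oas3 was the exception, at 24, 24.2, 15.5 and 17.9 CPM in B16 and 21.7 to 38.7 CPM (median 27.4) in MC38 (log2 difference -0.47, SE 0.08, adjusted p = 4.15e-06), with overlap between the lines. Of the 42 other antiviral genes 38 were tested, 28 were at least 2-fold higher in B16, 2 in MC38 (Ifi27l2a and Ifitm1) and 4 did not pass, and the median log2 difference was 1.73. Rsad2, the enzyme viperin, was at 197, 202, 177 and 194 CPM in B16 and 0.261 to 1.4 CPM (median 0.868) in MC38 (log2 difference 7.88, SE 0.19, adjusted p = 1.34e-30). Isg15, a ubiquitin-like modifier, was at 161, 169, 139 and 117 CPM against 4.67 to 9.51 CPM (median 6.04) (log2 difference 4.55, SE 0.11, adjusted p = 1.57e-19). Mx1, an antiviral GTPase, was at 112, 107, 87.7 and 97.4 CPM against 1.57 to 2.94 CPM (median 2.04) (log2 difference 5.60, SE 0.12, adjusted p = 2.71e-28). Lgals3bp, a secreted glycoprotein, was at 1060 to 1340 CPM against 72.5 to 81.8 CPM. Ifitm1, which blocks virus entry, was reversed at 0, 0.087, 0.0792 and 0.16 CPM in B16 and 9.14 to 17.8 CPM (median 13.2) in MC38, while its neighbour Ifitm3 was 253 to 315 CPM and 176 to 204 CPM. Ifit3, Isg15 and several others also varied with the form in MC38 (adjusted p for Ifit3 1.02e-06), and the highest MC38 library of Ifit3 remained below the lowest B16 library.

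The GTPase families that act on intracellular pathogens were counted in both lines and mostly higher in B16. The 11 guanylate-binding protein genes summed to 5066 to 5622 CPM in B16 and 1637 to 1847 CPM in MC38. Of the 10 tested, 8 were at least 2-fold higher in B16 and Gbp5 and Gbp7 were higher in MC38 by less, and the median log2 difference was 2.22. Gbp2 was at 2421, 2359, 2311 and 2245 CPM in B16 and 779 to 844 CPM (median 816) in MC38 (log2 difference 1.57, SE 0.04, adjusted p = 3.39e-24). Gbp4 was at 1438, 1370, 1246 and 1484 CPM against 80.9 to 110 CPM (median 88.3) (log2 difference 3.95, SE 0.05, adjusted p = 9.22e-31). Gbp10 and Gbp11 were low in MC38, at 1.74 to 3.57 CPM and 0 to 0.301 CPM, against 175 to 242 CPM and 55.8 to 67.5 CPM in B16, although reads of these similar genes can be split between copies by the counting. The 12 immunity-related GTPases summed to 10041 to 10979 CPM in B16 and 3338 to 4166 CPM in MC38, and 8 were at least 2-fold higher in B16 and 2 in MC38, both unnamed copies with similar sequence. Irgm1, a regulator of the family, was at 2392, 2250, 2292 and 2411 CPM against 888 to 1020 CPM (median 956) (log2 difference 1.33, SE 0.04, adjusted p = 3.97e-22). Ifi47 was at 781, 800, 771 and 797 CPM against 136 to 167 CPM (median 146) (log2 difference 2.45, SE 0.04, adjusted p = 1.06e-27).

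Of the sensors of foreign nucleic acid, 6 of 15 tested were at least 2-fold higher in B16 and 1 in MC38, with a median log2 difference of 0.88. Zbp1, a sensor of Z-form nucleic acid, was at 416, 420, 370 and 330 CPM in B16 and 26 to 42.2 CPM (median 32.4) in MC38 (log2 difference 3.58, SE 0.06, adjusted p = 2.65e-28). Cgas, the sensor of cytosolic DNA, was at 39.1, 41.4, 38.2 and 42.3 CPM against 7.92 to 10.5 CPM (median 9.33) (log2 difference 2.17, SE 0.09, adjusted p = 4.71e-19). Ifih1, which encodes the RNA sensor MDA5, was at 109, 97.5, 92.7 and 101 CPM against 17 to 21.7 CPM (median 19.5) (log2 difference 2.40, SE 0.07, adjusted p = 5.82e-23). Mavs, the adaptor of the RNA sensors on mitochondria, was reversed at 38.8, 38, 38.2 and 37 CPM in B16 and 74.8 to 81.9 CPM (median 80) in MC38 (adjusted p = 1.48e-15, just under 2-fold). The 1 gene at least 2-fold higher in MC38 was Aim2, at 0.0792 to 0.399 CPM in B16 and 0.399 to 1.28 CPM in MC38, with an adjusted p of 0.0268 that ranged up to 0.178 when single libraries were left out, the highest value being without replicate 1 of wild-type B16.

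**Figure D5:**
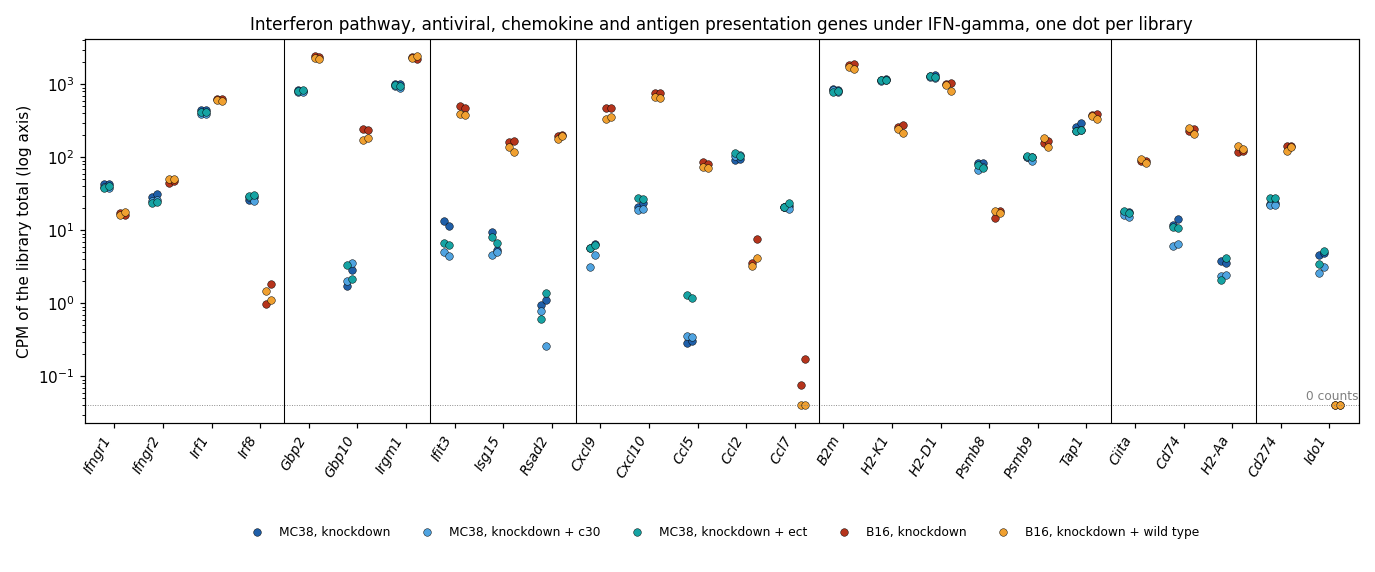
CPM on a log axis for 26 interferon pathway, antiviral, chemokine, antigen presentation and checkpoint genes (x axis), 1 dot per library, coloured by line and Sdc1 form. B16 dots lie above MC38 dots for most genes, and Ifngr1, Irf8, Ccl2, Ccl7, H2-K1, H2-D1, Psmb8 and Ido1 have the MC38 dots on top.

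Class I antigen presentation genes lay on both sides in counts near those over all genes. Of 27 genes listed, 22 were tested, and 4 were at least 2-fold higher in B16 and 4 in MC38, where 17.8% and 21.1% of all genes tested were. Below 2-fold 9 and 3 more passed, and the median log2 difference was 0.35. The heavy chain gene H2-K1 was at 261, 279, 242 and 218 CPM in B16 and 1097 to 1193 CPM (median 1144) in MC38 (log2 difference -2.15, SE 0.04, adjusted p = 1.16e-25). The other classical heavy chain gene H2-D1 was at 1018, 1049, 977 and 810 CPM in B16 and 1225 to 1345 CPM (median 1271) in MC38 (log2 difference -0.36, SE 0.04, adjusted p = 3.74e-08). B2m, the light chain shared by all class I molecules, was at 1863, 1910, 1724 and 1611 CPM in B16 and 787 to 863 CPM (median 818) in MC38 (log2 difference 1.16, SE 0.04, adjusted p = 5.39e-21). Per kb of exon the B16 mean of H2-K1 was 85.1 CPM and that of H2-D1 374, against 390 and 494 in MC38, so that the 2 heavy chain genes were closer to each other in MC38. These genes share sequence, so reads may be split between them by the counting. The inducible subunits of the immunoproteasome stood in different orders. Psmb8 was at 14.7, 18.6, 18.2 and 17.4 CPM in B16 and 67.8 to 85 CPM (median 76.2) in MC38 (log2 difference -2.11, SE 0.07, adjusted p = 2.76e-20). Psmb9 was at 156, 167, 183 and 140 CPM and 88.4 to 106 CPM (median 101) (log2 difference 0.74, SE 0.06, adjusted p = 9.22e-11), and Psmb10 at 223 to 284 CPM and 173 to 189 CPM. Tap1, a subunit of the peptide transporter into the endoplasmic reticulum, was at 381, 388, 364 and 336 CPM and 229 to 298 CPM (median 238) (log2 difference 0.61, SE 0.04, adjusted p = 4.76e-13). Nlrc5, the transactivator of class I genes, was at 801, 782, 681 and 723 CPM and 419 to 470 CPM (median 450) (log2 difference 0.79, SE 0.04, adjusted p = 2.59e-16).

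Psmb8, Psmb9 and Tap1 lie side by side in the class II region of the major histocompatibility complex, and the windows of Tap1 and Psmb9 overlap on opposite strands. Those of Tap1 and Psmb8 are shown because the neighbours differed in opposite directions, with TTCNNNGAA in capitals.
Tap1: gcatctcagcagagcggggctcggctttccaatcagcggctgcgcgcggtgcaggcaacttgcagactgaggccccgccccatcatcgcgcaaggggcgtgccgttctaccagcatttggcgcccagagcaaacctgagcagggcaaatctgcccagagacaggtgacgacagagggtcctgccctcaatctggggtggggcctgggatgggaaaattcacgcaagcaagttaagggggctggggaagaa
Psmb8: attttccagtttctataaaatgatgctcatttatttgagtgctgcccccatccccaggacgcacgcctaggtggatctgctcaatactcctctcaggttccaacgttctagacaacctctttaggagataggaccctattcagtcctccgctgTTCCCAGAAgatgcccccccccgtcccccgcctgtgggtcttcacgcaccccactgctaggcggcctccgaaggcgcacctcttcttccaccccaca
They lie at chr17:34187306-34187555 on the plus strand for Tap1 and chr17:34197945-34198194 on the plus strand for Psmb8. The Psmb8 window held 1 gamma-activated site motif, 97 bases before the start, and the Tap1 window held neither this motif nor the response element core. The Psmb9 window, not shown, held neither as well. Among windows of listed class I genes the site was in 2 of 24, against 7.02% of all windows. These matches say nothing on binding, and their part in the order of the lines was not tested.

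Class II pathway genes were mostly higher in B16. Of 18 listed, 13 were tested, 7 were at least 2-fold higher in B16 and 1 in MC38, and the median log2 difference was 1.61. The 1 was Ctsl, a lysosomal protease gene, at 302, 307, 276 and 281 CPM in B16 and 1339 to 1432 CPM (median 1374) in MC38. With it the list summed to 1174 to 1330 CPM in B16 and 1581 to 1664 CPM in MC38, so the sum stood in the opposite order to the median. Ciita, the transactivator on which class II transcription depends, was at 90.2, 90.5, 94.3 and 84.9 CPM in B16 and 15.1 to 18.2 CPM (median 17.5) in MC38 (log2 difference 2.45, SE 0.06, adjusted p = 2.53e-23). Cd74, the invariant chain, was at 229, 243, 251 and 206 CPM against 6.17 to 14.1 CPM (median 10.9) (log2 difference 4.63, SE 0.07, adjusted p = 2.08e-29). The chain gene H2-Aa was at 117, 122, 141 and 130 CPM against 2.11 to 4.12 CPM (median 2.99) (log2 difference 5.42, SE 0.11, adjusted p = 5.24e-28). H2-Eb1 was at 109, 106, 129 and 106 CPM against 0.931 to 1.51 CPM (median 1.22) (log2 difference 6.58, SE 0.16, adjusted p = 1.74e-28). All 4 were counted in every MC38 library as well. Cd74 also differed between the MC38 forms (adjusted p = 0.000538), at 6.17 to 14.1 CPM. The factors Rfx5, Rfxank and Rfxap, which bind class II promoters in all cells, differed by 0.20, 0.50 and -0.09 on the log2 scale, the last without passing the test. Ctss, the protease of professional antigen-presenting cells, did not pass 0.783 CPM in any library.

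Chemokine genes were called in both directions. Of 27 listed, 17 were tested, 8 were at least 2-fold higher in B16 and 6 in MC38, with 5 on the B16 side under a filter at 5 CPM. The 3 ligands of CXCR3, which draw activated T cells, were on the B16 side. Cxcl9 was at 477, 471, 333 and 357 CPM against 3.17 to 6.56 CPM (median 5.73) (log2 difference 6.31, SE 0.08, adjusted p = 1.35e-32). Cxcl10 was at 765, 752, 678 and 658 CPM against 18.9 to 27.9 CPM (median 22.4) (log2 difference 5.01, SE 0.05, adjusted p = 7.03e-33). Cxcl11 was at 33.8, 34.7, 22.4 and 21.6 CPM against 0 to 0.527 CPM (median 0.317) (log2 difference 6.83, SE 0.42, adjusted p = 1.07e-20). Cxcl9 differed between the B16 forms as well (adjusted p = 0.00486), with both wild-type libraries below both knockdown libraries and above every MC38 library. Ccl5, which attracts T cells and other leukocytes, was at 86.2, 82.2, 74.3 and 71.3 CPM against 0.29 to 1.32 CPM (median 0.35) (log2 difference 7.29, SE 0.23, adjusted p = 1.91e-28). Ccl2 and Ccl7, ligands of CCR2 that draw monocytes, were on the MC38 side. Ccl2 was at 3.59, 7.57, 3.25 and 4.15 CPM in B16 and 92.4 to 114 CPM (median 105) in MC38 (log2 difference -4.46, SE 0.14, adjusted p = 3.89e-19). Ccl7 was at 0.0764, 0.174, 0 and 0 CPM and 19.5 to 23.6 CPM (median 21.1) (ratio 353, 95% interval 121 to 1714). The chemokine gene Ccl8 was on the same side, at 0, 0.087, 0 and 0 CPM in B16 and 12.6 to 18.4 CPM (median 13.9) in MC38 (ratio 723, 95% interval 129 to 28581). Cxcl16, the ligand of CXCR6, was also on the MC38 side, at 0.317 to 0.87 CPM in B16 and 10.7 to 13.3 CPM in MC38. The list summed to 1173 to 1433 CPM in B16 and 237 to 273 CPM in MC38.

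Among checkpoint ligands and immune evasion genes, 4 of 15 tested were at least 2-fold higher in B16 and 6 in MC38, where 17.8% and 21.1% of all genes tested were. Cd274, which encodes PD-L1, was at 141, 144, 124 and 138 CPM in B16 and 22.4 to 27.9 CPM (median 23.2) in MC38 (log2 difference 2.53, SE 0.06, adjusted p = 2.44e-25). Lgals9, galectin-9, was at 159, 153, 154 and 128 CPM against 39.8 to 48.7 CPM (median 46.4) (log2 difference 1.76, SE 0.06, adjusted p = 8.4e-21). Nos2, the inducible nitric oxide synthase, was at 6.49, 7.66, 4.12 and 3.03 CPM against 0.0871 to 0.399 CPM (median 0.184) (log2 difference 4.79, SE 0.45, adjusted p = 2.86e-14). Ido1, the interferon-inducible enzyme that degrades tryptophan, had no count in B16 and was at 2.64 to 5.19 CPM (median 4.04) in MC38, at least 68-fold higher. Lgals3, galectin-3, was at 1.53, 0.957, 2.14 and 1.68 CPM in B16 and 676 to 819 CPM (median 706) in MC38 (log2 difference -8.81, SE 0.13, adjusted p = 3.15e-33). Pdcd1lg2, the second PD-1 ligand, did not pass 0.554 CPM in B16 and had no count in MC38. Of the NKG2D ligands, which flag stressed cells to natural killer cells, 5 of 9 listed were in the table and 3 were tested. Ulbp1 was at 1.83, 2.26, 1.03 and 0.878 CPM in B16 and 127 to 148 CPM (median 136) in MC38 (log2 difference -6.56, SE 0.16, adjusted p = 1.78e-29). Raet1e was at 0.95 to 2.67 CPM and 23.1 to 32.6 CPM, and Raet1d at 8.46 to 10.1 CPM and 3.43 to 5.37 CPM. Reads of the Raet1 copies may be split.

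Inflammatory genes of the NF-κB pathway leaned towards MC38, with 10 of 21 tested at least 2-fold higher there, 4 in B16 and a median log2 difference of -0.93. Ptgs2, the inducible cyclooxygenase, was at 0, 0.174, 0.158 and 0 CPM in B16 and 54.8 to 74.9 CPM (median 59.9) in MC38. Ptges, the prostaglandin E synthase that follows it, was at 0.229, 0.174, 0.712 and 0.319 CPM and 101 to 121 CPM (median 113) (log2 difference -8.33, SE 0.33, adjusted p = 5.86e-29). Vcam1, an adhesion molecule for leukocytes, was at 1.6, 0.87, 0.871 and 1.2 CPM against 48.5 to 74.6 CPM (median 55.6) (log2 difference -5.61, SE 0.19, adjusted p = 6.12e-25). The subunit gene Nfkb2 was at 36.8 to 47.7 CPM in B16 and 155 to 170 CPM in MC38. On the B16 side, the complement component C3 was at 63.1, 65.4, 39.6 and 39.7 CPM against 0.261 to 1.76 CPM (median 0.97) (log2 difference 5.85, SE 0.20, adjusted p = 6.22e-25). Il18 was at 5.78 to 7.31 CPM against 0.465 to 2.26 CPM, and Lcn2 and Il33 were counted in B16 with no count in MC38. Il6, Il1b, Tnf and Csf2 did not pass 0.7 CPM in any library. Complement genes leaned to B16, with 6 of 12 tested at least 2-fold higher there and 2 in MC38. C1ra, a protease of the first component, was at 149, 154, 126 and 122 CPM against 6.06 to 10.7 CPM (median 7.49) (log2 difference 4.14, SE 0.07, adjusted p = 1.94e-28). C4b was at 146, 145, 131 and 132 CPM against 14.4 to 30.4 CPM (median 23.3) (log2 difference 2.72, SE 0.06, adjusted p = 1.08e-25). C1rb did not pass despite a fitted log2 difference of 6.63, since 1 B16 library was at 7.2 CPM and the other 3 at 0.239 to 0.957 CPM.

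Effectors of cell death were split evenly, with 6 of 21 tested at least 2-fold higher in each line. Over all genes tested the shares were 17.8% in B16 and 21.1% in MC38. Caspase-3 was at 53.6, 52.7, 54.3 and 58.9 CPM in B16 and 199 to 218 CPM (median 215) in MC38 (log2 difference -1.90, SE 0.05, adjusted p = 1.75e-23). Gsdmd, the pore former of pyroptosis, was at 24.4, 25.9, 26.8 and 23 CPM against 103 to 126 CPM (median 115) (log2 difference -2.15, SE 0.06, adjusted p = 8.31e-23). Casp8 was higher in B16, at 87 to 101 CPM against 42 to 51.2 CPM, and Casp1 was nearly absent there at 0.174 to 0.639 CPM against 5.11 to 10.4 CPM. Ripk3, a kinase of necroptosis, did not pass 0.145 CPM in any library, while its substrate Mlkl stood at 205 to 210 CPM and 236 to 250 CPM.

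Tumour suppressor genes and oncogenes gave 6 of 26 tested at least 2-fold higher on each side, near the shares over all genes (17.8% in B16, 21.1% in MC38). Cdkn2a and Cdkn2b, the neighbouring genes of cyclin-dependent kinase inhibitors that are often lost in tumours, had no count in any of the 10 libraries, while Mtap, which lies beside them in the genome, was at 189 to 204 CPM in B16 and 151 to 169 CPM in MC38. Trp53, which encodes p53, was at 95.9, 112, 121 and 94.9 CPM in B16 and 548 to 615 CPM (median 567) in MC38 (log2 difference -2.40, SE 0.05, adjusted p = 1.3e-22). The p53 target Cdkn1a, which encodes p21, was at 168, 164, 189 and 172 CPM against 29.3 to 37.5 CPM (median 34) (log2 difference 2.41, SE 0.05, adjusted p = 2.57e-25), in the opposite order. Mdm2, another known target, was at 129, 119, 117 and 125 CPM against 46.5 to 53.1 CPM (median 49.8) (log2 difference 1.35, SE 0.05, adjusted p = 2.04e-19). The D cyclins stood in opposite order. Ccnd1 was at 96.9, 104, 96.7 and 98 CPM in B16 and 582 to 612 CPM (median 590) in MC38 (log2 difference -2.54, SE 0.04, adjusted p = 2.52e-27). Ccnd2 was at 707, 701, 675 and 669 CPM and 104 to 119 CPM (median 114) (log2 difference 2.66, SE 0.04, adjusted p = 1.01e-28). Cdk6, their partner kinase, was on the MC38 side (70.8 to 76.5 CPM against 306 to 342 CPM), and Cdk4 differed by 0.14 on the log2 scale. Myc and Nras differed by less than 0.4 on this scale.

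Proliferation genes differed little in size although most passed, as did 78.6% of all genes tested. All 25 were tested. Of these 1, Ccne1, was at least 2-fold higher in B16 (64.1, 61.6, 65.9 and 57.2 CPM against 23.9 to 34.4 CPM (median 31.2)) and none in MC38. Below 2-fold 6 and 15 passed, 3 did not pass, and the median log2 difference was -0.23. Mki67 was at 632, 618, 607 and 672 CPM in B16 and 892 to 1192 CPM (median 1001) in MC38 (log2 difference -0.64, SE 0.04, adjusted p = 7.36e-14). The helicase subunit gene Mcm4 was at 156, 167, 157 and 167 CPM and 312 to 330 CPM (median 317) (log2 difference -0.93, SE 0.04, adjusted p = 2.82e-17). Targets of the coactivator YAP gave 10 of 20 tested at least 2-fold higher in MC38 and 2 in B16. Ankrd1 was at 0.382, 0.957, 0.712 and 0.559 CPM in B16 against 81.5 to 100 CPM (median 90.3) (log2 difference -7.06, SE 0.24, adjusted p = 3.92e-27). Ccn1, a matricellular protein, was at 26.3, 23.2, 27.2 and 23.2 CPM against 161 to 197 CPM (median 179) (log2 difference -2.78, SE 0.06, adjusted p = 1.4e-25). F3, tissue factor, was reversed at 16.6 to 19.6 CPM against 2.55 to 3.88 CPM.

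Genes of glycolysis differed by isoenzyme. Of 28 listed, 24 were tested, 10 were at least 2-fold higher in B16, 3 in MC38, 7 and 3 more passed below 2-fold, and the median log2 difference was 0.70. Aldoc was at 19.5, 25.3, 22.8 and 19.3 CPM in B16 and 0.703 to 1.6 CPM (median 1.07) in MC38 (log2 difference 4.31, SE 0.20, adjusted p = 2.42e-19). Ldhb, the lactate dehydrogenase subunit of heart, was at 94.4, 110, 108 and 80.2 CPM against 0.176 to 0.522 CPM (median 0.265) (log2 difference 8.36, SE 0.34, adjusted p = 1.69e-26). Ldha, the subunit of muscle, was at 1216 to 1407 CPM and 1134 to 1358 CPM. The glucose transporter Slc2a3 was counted in B16 at 33.8, 37.2, 32.9 and 36.1 CPM and near the floor in MC38 at 0 to 0.301 CPM. The lactate exporter Slc16a3 was reversed, at 1.15, 2.09, 1.9 and 1.36 CPM in B16 and 40.2 to 52.8 CPM (median 49.1) in MC38 (log2 difference -4.82, SE 0.17, adjusted p = 2.67e-23). Gapdh, which has many near-identical pseudogenes, ranged from 27.7 to 258 CPM among the MC38 libraries and 388 to 683 CPM in B16, and between the knockdown groups alone its adjusted p was 0.0866.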

How the data were processed

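Raw counts per gene or locus were deposited for 10 libraries, as whole numbers with differing totals. The submitters' processing notes name the build GRCm39 and the tools featureCounts, HTSeq, Trimmomatic, DESeq2 and HISAT2 2.0.5. The annotation release, the strand setting and the treatment of reads with several matches are not given in the sources used here, so paralogues and overlapping genes are uncertain. Of 60676 rows, 51884 were matched to a symbol by Ensembl identifier. CPM are counts per 1000000 counts of the library, and levels per kb use exon lengths of GENCODE on GRCm38. Promoter sequences are from RefSeq on GRCm38.p6.

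Libraries were grouped into 5 groups of 2 by the line and the Sdc1 form in their titles. One model over all 10 was fitted with edgeR 4.0.16 (R 4.3.3): filterByExpr by group, TMM scaling, robust quasi-likelihood test, 2-sided. The line difference is the mean of the 2 B16 groups minus the mean of the 3 MC38 groups. P-values were adjusted by Benjamini-Hochberg over all 16877 genes tested. A call is an adjusted p under 0.05, and at least 2-fold adds a log2 difference of 1. Where a line had few counts, the ratio of summed CPM is given with an exact conditional binomial interval at the 95% level. Where it had none, the bound rests on 3 counts over the group. The fit was also run on simulated counts in which few genes differed, by modest folds and without differences between forms. Most genes passed between the lines in these data, so the simulation does not test the scaling used here.

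The genes named are Sdc1, the 12 largest differences each way with at least 20 CPM in the higher line and no overlap, and members of 31 lists, with up to 4 called members each way by smallest adjusted p and the defining genes of a list, and further members named after their values were seen. The members and lists were chosen with earlier results of these data known, so no list is independent evidence. Alternatives were RLE and upper-quartile scaling, no filter, DESeq2 1.42.0, a filter at 5 CPM, limma-voom (limma 3.58.1), a replicate block, the line as the only factor, a test against a 2-fold change, and leaving out each library. The list counts under each alternative were added after seeing the data. Some listed genes are not reported here by name and stay in the counts of their lists.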

Additional observations from a re-analysis of the deposited data

Results flagged for a closer look

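Libraries that stood apart from the others of their line were looked for in 112 sets of values, the 4 B16 and the 6 MC38 libraries for Sdc1, for the 12 largest differences each way and for the summed CPM of the 31 gene lists, by the gap of an extreme library relative to the range. For continuous values chance would mark about 1 set in 20. This rate does not hold for 7 of the 9 values found, in which every other library of the line had no count, since any such lone count is marked. The genes were also chosen for their difference between the lines. Of 9 such values, 7 were replicate 2 of MC38 with c30. This library was at 2.44 CPM for Dct, 2.7 CPM for Tyrp1, 0.0871 CPM for Sox10, 0.0871 CPM for Tyr, 0.174 CPM for Vgll3, 0.0871 CPM for Gsdmc and 0.435 CPM for Syt4, and in the last 5 the other MC38 libraries had no count. Dct and Tyrp1 rested on 28 and 31 counts, the other 5 on 1 to 5. The 7 genes are among those highest in B16 against MC38. The other values were both in replicate 1 of the B16 knockdown, which had 0.0764 CPM of Ngef and 0.153 CPM of Arl4c, genes of the MC38 side, from 1 and 2 counts, with no count in the other B16 libraries. Whether these counts came from RNA, reads or cells of the other line was not tested. Ratios of summed CPM without replicate 2 of c30 are 14488 for Mlana, 35441 for Dct and 29046 for Tyrp1, and without it Tyr, Sox10, Syt4, Vgll3 and Gsdmc had no count in MC38.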

How the results depend on the processing

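The line difference passed for 13258 genes and for 13162 with a replicate block, and the block ended no call of a named gene. Same-numbered libraries of different groups had correlations of their deviations from the group mean of -0.11 to 0.02, so the numbers were not taken to pair libraries. Against a 2-fold change directly, 5542 genes passed, 2604 higher in B16 and 2938 in MC38. A filter at 5 CPM left 1754 and 1893 genes at least 2-fold higher. With no filter, tests of the forms passed 635 genes in MC38 and 103 in B16. Leaving out single libraries moved these form counts from 62 to 1334 in MC38 and from 6 to 1194 in B16; the highest counts came without replicate 1 of wild-type B16, and the cause was not tested. Genes of 1 line only fell to 130 and 161 (B16 and MC38) at 10 CPM and to 67 and 80 with 0 counts in the other line. Of 3896 values of 206 named genes under alternatives, 3852 kept direction and call, 44 kept direction and lost the call, and 0 reversed. Outside the test against a 2-fold change, the calls lost were those of Sdc1, Hoxa10 and Aim2, the last with no filter (adjusted p = 0.054), DESeq2 (0.07) and 5 of the single libraries left out. Upper-quartile scaling moved the median of all genes to -0.09 and the share of calls higher in B16 from 48.8% to 45.8%. The depth limits genes below about 0.264 CPM, where presence in a line could not be read.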
